A study of Mus musculus with 24 samples.

Results

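Lipid-associated macrophages are tissue macrophages that take up and break down lipid, and they are recognised by the receptor Trem2 together with a small set of lysosomal, tetraspanin and secreted gene products. The 10 genes described here are Trem2 and 9 genes named with it: Tyrobp, Gpnmb, Cd9, Cd63, Lgals3, Lpl, Cd68, Mmp12 and Ctsd. They were named as a group without a threshold on any measured value, although earlier results of these data were known when they were chosen. All 10 were found among the 21755 genes of the p16-3MR table, and 5 (Tyrobp, Cd63, Cd68, Mmp12 and Ctsd) could be read among the 12643 labels of the wild-type table, whose names had lost 9 letters and were used only where exactly 1 gene symbol could have given the label.

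Liver RNA from 24 mice was sequenced with Smart-3SEQ, which reads the 3′ ends of transcripts. All 12 p16-3MR mice carried a transgene that places a viral thymidine kinase under control of the p16Ink4a gene, so that ganciclovir (GCV) is toxic to cells expressing p16, and 12 further mice were wild type. Each genotype had 3 females and 3 males given GCV (150 mg/kg according to the labels, while the methods of the study give a lower dose) and 3 females and 3 males given the vehicle, water at pH11 (VEH). Injections were intraperitoneal and monthly, on 5 days in a row in p16-3MR mice, with 5 days a month recorded for both genotypes. They began at 16 to 18 months of age in p16-3MR mice and at 6 months in wild-type mice, whose livers were collected after 3 months. The methods place the sequenced p16-3MR livers in the oldest subset of the cohort, and the wild-type mice are called age-matched although their treatment began earlier in life. The p16-3MR libraries form batch 1 and the wild-type libraries batch 2, so genotype, batch and age cannot be told apart, and the tables were fitted separately. In the wild-type groups GCV was given where no cell carries the kinase, but treatment began earlier in life and the libraries are of batch 2.

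Trem2 is a surface receptor for lipids, lipoproteins and cell debris. It has no signalling tail of its own and signals through the adaptor Tyrobp, also called DAP12, which recruits the kinase Syk. In liver, macrophages carrying Trem2 gather around fat-laden or injured hepatocytes and fibrous septa, whereas resident Kupffer cells of a healthy liver carry little of it.

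The sequences before the transcription starts of the members were examined because several of these genes were high in the same livers. RefSeq (GRCm38.p6) gave a start for 8 of the 10 members, Tyrobp and Lpl being the others. The 250 bases before the start were searched on both strands for the word AGGTCA, a half-site of nuclear receptors such as LXR, for TGACTCA, the AP-1 word, for CACGTG, the E-box read by TFEB and MITF, and for GGAAGT, an Ets word that PU.1 can read. AGGTCA stood in 14.0% of 32851 mouse promoters and in those of Trem2, Mmp12 and Ctsd. Trem2 held it 68 bases before the start, on the minus strand, as the capitals mark in the 250 bases at chr17:48346151-48346400 (+):
Trem2: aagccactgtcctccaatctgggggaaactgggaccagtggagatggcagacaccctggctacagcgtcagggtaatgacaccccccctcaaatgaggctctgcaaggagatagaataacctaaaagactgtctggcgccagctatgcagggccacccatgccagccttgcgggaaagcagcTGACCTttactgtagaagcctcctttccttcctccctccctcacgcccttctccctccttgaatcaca
The AP-1 word stood in 4.46% of promoters. It occurred at 149 and 24 bases before the start of Cd68, in the 250 bases at chr11:69666171-69666420 (-), where the capitals show its reverse complement:
Cd68: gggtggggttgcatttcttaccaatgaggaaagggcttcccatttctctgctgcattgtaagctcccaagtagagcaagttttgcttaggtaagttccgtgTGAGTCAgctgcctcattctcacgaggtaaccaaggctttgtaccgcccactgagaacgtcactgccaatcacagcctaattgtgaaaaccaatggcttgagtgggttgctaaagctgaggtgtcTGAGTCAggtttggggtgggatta
Mmp12 also held the AP-1 word, 44 bases before its other listed start (chr9:7347318-7347348, +), and the Ets word 45 bases before its upstream start (chr9:7344340-7344369, +). These are short words, and their presence is a description of the letters only:
Mmp12 AP-1 word: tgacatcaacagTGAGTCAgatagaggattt
Mmp12 Ets word: gcattaacagggGGAAGTttaagcaactaa
GGAAGT stood in 19.7% of promoters and, among the members, in those of Mmp12 and Cd63. Ctsd, which encodes the lysosomal protease cathepsin D, was the member with an E-box, a word found in 6.02% of promoters. It held the word at 98 bases (chr7:142387908-142387937, -) and at 245 bases (chr7:142388055-142388077, -) before its start, the latter running into TGACCT, the reverse complement of AGGTCA:
Ctsd E-box, near: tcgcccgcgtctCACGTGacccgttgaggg
Ctsd E-box, far: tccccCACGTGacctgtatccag
No searched word was in the window of Gpnmb, Cd9 or Lgals3.

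Total counts ran from 5005760 to 7160172 in p16-3MR livers and from 3084517 to 5667904 in wild-type livers. One library stood apart. In GCV-treated female 33, mitochondrially encoded genes held 64.0% of the counts, against 12.3 to 22.4% in the other p16-3MR livers, and the limit that a count of 0 allows (3 counts) was 2.32 CPM (counts relative to library size), against 0.293 to 0.578. Livers are named by their group and number, and levels are CPM scaled by TMM factors. Markers of hepatocytes were abundant in every liver, so the labelled tissue was present throughout, but their summed level was lowest in GCV-treated male 32 (24382 CPM) and VEH-treated male 24 (39974 CPM), against 80424 to 155105 CPM in the other 10. Cdkn2a, the gene of p16Ink4a, had between 0 and 7 counts per p16-3MR liver.

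Trem2 was low in most p16-3MR livers and high in 3 male livers, which came from both treatments. Its level was 5.59, 3.86 and 1.68 CPM in GCV-treated females 31, 33 and 35, and 6.03, 2.46 and 8.43 CPM in VEH-treated females 27, 28 and 29. In males it was 32.6, 93.3 and 3.27 CPM after GCV (livers 30, 32 and 34), and 42.8, 2.68 and 2.19 CPM after VEH (livers 24, 25 and 26). Both treatment groups of females overlapped, and in males the third GCV liver was near the lower VEH livers while VEH-treated male 24 exceeded GCV-treated male 30. The counts behind these levels ran from 5 in female 33 to 956 in male 32. Trem2 spanned 55.6-fold between its lowest and highest liver, and 95.6% of the 12409 genes with a mean of at least 10 counts had a smaller range. The gene lies at chr17:48346401-48354147 on the plus strand.

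**Figure D1:**
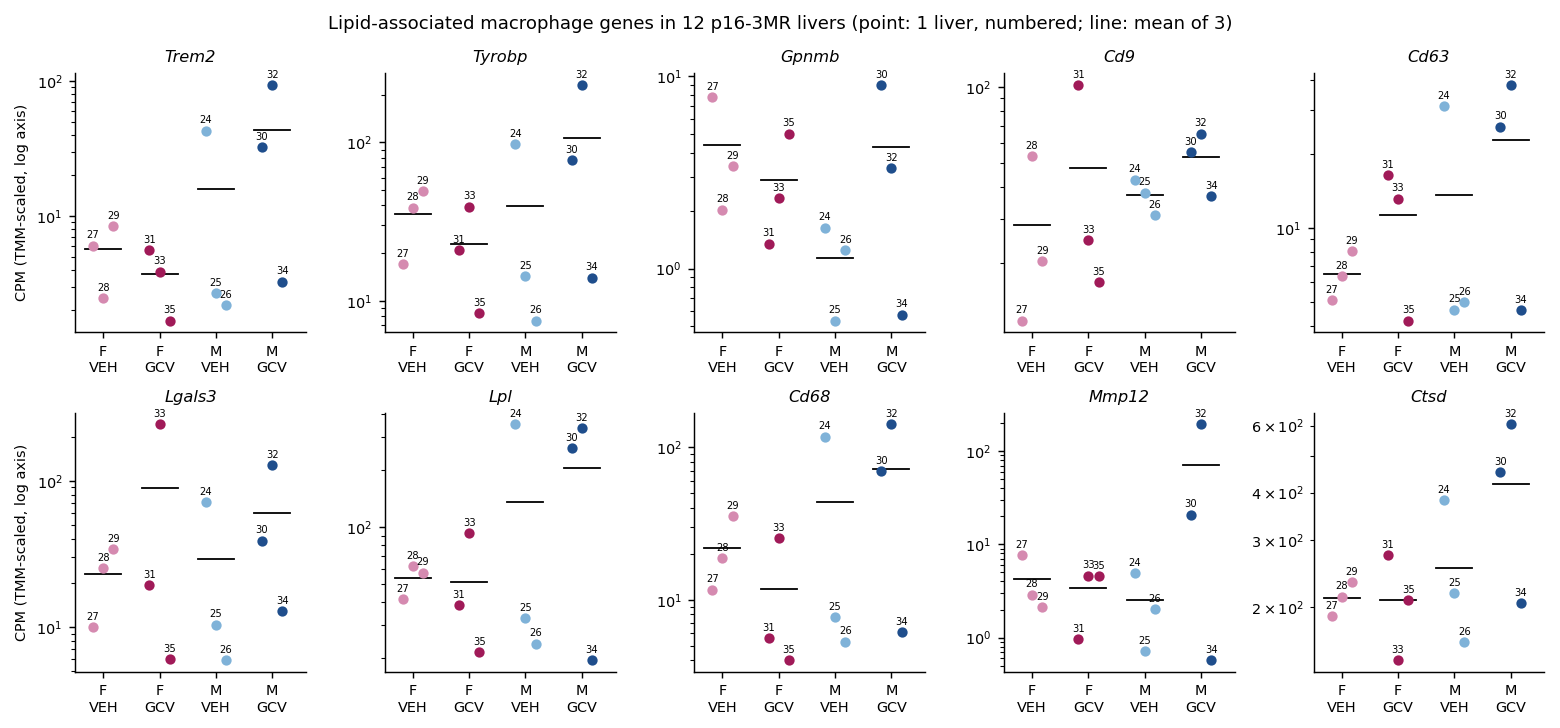
Level of each of the 10 genes in the 12 p16-3MR livers, in TMM-scaled CPM on a log axis, by sex (F, M) and treatment. Each point is 1 liver with its number, and each line is the mean of 3 livers. Livers 24, 30 and 32 are the 3 highest for Trem2, Tyrobp, Cd63, Lpl, Cd68 and Ctsd, while on this scale Cd9 peaks in liver 31 and Lgals3 in liver 33 (without TMM both peak in liver 32).

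Tyrobp, the adaptor through which Trem2 signals, had 21.0, 39.4 and 8.39 CPM in GCV-treated females and 17.0, 38.8 and 49.5 CPM in VEH-treated females (same liver order). GCV-treated males had 77.5, 230 and 14.0 CPM, and VEH-treated males 97.9, 14.3 and 7.50 CPM. The same 3 male livers were highest for both partners of the receptor complex. Because this is bulk RNA, more cells of a type and more RNA per cell cannot be told apart in any of these levels.

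Of the 10 members, 6 had livers 32, 24 and 30 as their 3 highest: Trem2, Tyrobp, Cd63, Lpl, Cd68 and Ctsd. Cd68, a heavily glycosylated protein of macrophage lysosomes and endosomes, had 142 CPM in GCV-treated male 32, 118 CPM in VEH-treated male 24 and 70.0 CPM in GCV-treated male 30. The next liver, VEH-treated female 29, had 35.5 CPM, and the lowest had 4.03 CPM. Lpl, lipoprotein lipase, frees fatty acids from circulating triglyceride. It was highest in VEH-treated male 24 (352 CPM), then GCV-treated male 32 (336 CPM) and 30 (263 CPM), with a range of 19.6 to 92.7 CPM elsewhere. Without TMM scaling this order turned, with 607 CPM in liver 32 and 579 CPM in liver 24. The same 3 livers were the highest for all 6 members without TMM as well.

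Cd63, a tetraspanin of late endosomes and secreted vesicles, had 38.1, 31.2 and 25.8 CPM in livers 32, 24 and 30, and at most 16.4 CPM elsewhere. Ctsd had 604, 453 and 382 CPM in livers 32, 30 and 24, and 1090, 539 and 629 CPM there without TMM scaling. It varied least of the 10, with a 4.16-fold range on the TMM scale. Its range was larger than that of 46.1% of genes, so it was near the middle of all genes. Ctsd overlaps Gm49369 on the same strand, and that gene drew 3588 counts over the 12 livers against 23584 for Ctsd, so how the reads were split between them is uncertain.

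The summed level of 12 general macrophage markers (Csf1r, Adgre1, Lyz2, C1qa and others, none of them a member) moved with these values. It was 7123 CPM in GCV-treated male 32, 3306 CPM in VEH-treated male 24 and 1768 CPM in GCV-treated male 30, and 206 to 1360 CPM in the other 9 livers. All 12 markers were present in the p16-3MR table. The sum of 7 Kupffer cell markers, the resident macrophages of liver, was 3007, 1918 and 993 CPM in livers 32, 24 and 30. In VEH-treated females 28 and 29 it reached 1111 and 861 CPM, above or near that of liver 30. Monocyte and neutrophil markers summed to 769 CPM in liver 32 and 307 CPM in liver 24. VEH-treated female 28, which was not among the livers high in the members, had 394 CPM. Adipocytes are a main source of Lpl in the body, and 5 of their markers summed to 1.40, 0.14 and 0.39 CPM in livers 24, 30 and 32, where Adipoq and Plin1 had 0 counts. Elsewhere the sum was 0 to 8.45 CPM, with the highest values in GCV-treated male 34 (11 Adipoq and 6 Plin1 counts) and VEH-treated male 26 (0 counts of both), livers low in Lpl. Markers of other cells were also high in these livers. The sum of 8 stellate cell markers was 1501 CPM in liver 32 and 656 CPM in liver 24, against 217 to 480 CPM in the other 10, liver 30 among them (445 CPM). Markers of T and NK cells summed to 149 CPM in liver 24 and 104 CPM in liver 32, and to 2.81 to 66.8 CPM elsewhere. Markers of dividing cells reached 202, 199 and 161 CPM in livers 24, 30 and 32, against at most 133 CPM elsewhere, and those of sinusoidal endothelium 500 CPM in liver 32 and 330 CPM in liver 24, against at most 294 CPM elsewhere. Macrophage markers were therefore not the only ones to be high with the members. The part of cell content in the members' levels was not tested.

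**Figure D2:**
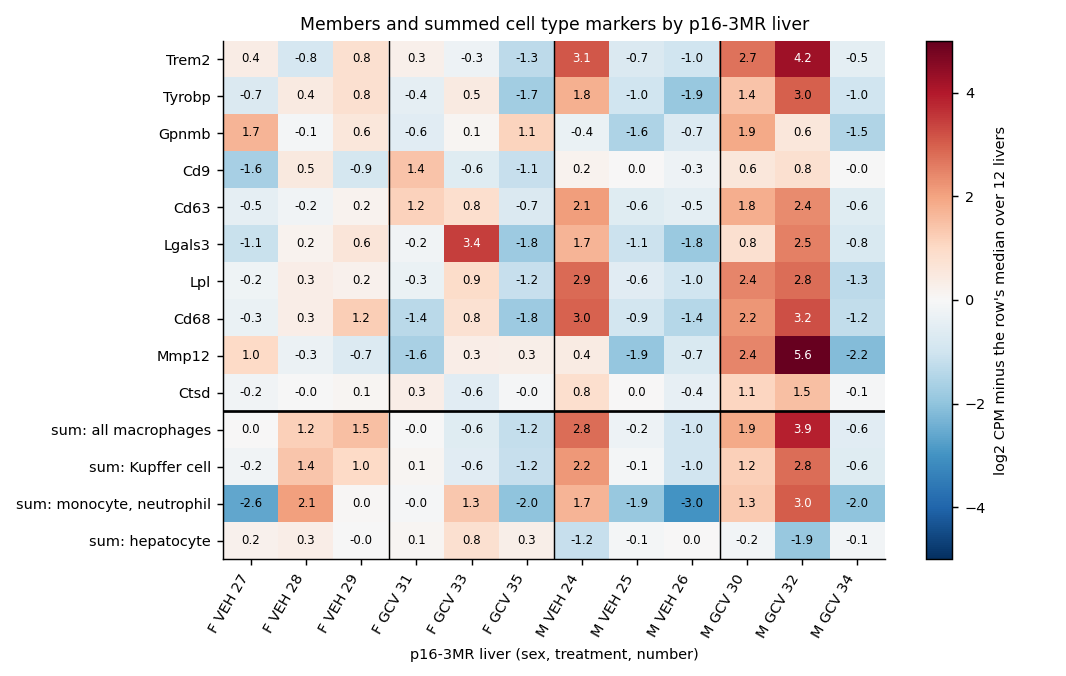
Log2 CPM of each member (upper rows) and of summed markers of macrophages, Kupffer cells, monocytes with neutrophils, and hepatocytes (lower rows), minus the row's median over the 12 p16-3MR livers; columns are livers by sex, treatment and number. Livers 24, 30 and 32 are red for most members and for the macrophage sum, and livers 24 and 32 are blue for the hepatocyte sum.

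The remaining 4 members had another order of livers on this scale, and for each of them the order of the 3 highest livers changed without TMM scaling. Gpnmb encodes a lysosomal and surface glycoprotein that marks lipid-loaded macrophages. Its levels were 1.35, 2.32 and 5.03 CPM in GCV-treated females and 7.77, 2.03 and 3.40 CPM in VEH-treated females. In males they were 9.02, 3.32 and 0.58 CPM after GCV and 1.63, 0.54 and 1.25 CPM after VEH. GCV-treated male 30, VEH-treated female 27 and GCV-treated female 35 were thus the highest with TMM scaling, whereas without it male 32 (5.98 CPM) came above female 35 (4.98 CPM). VEH-treated male 24, high for Trem2, had 14 Gpnmb counts. The 3 counts of Gpnmb in female 33, in GCV-treated male 34 and in VEH-treated male 25 lie at the limit that a count of 0 allows.

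Mmp12, macrophage metalloelastase, cuts elastin and other matrix proteins. It had 0.96, 4.63 and 4.53 CPM in GCV-treated females and 7.64, 2.89 and 2.14 CPM in VEH-treated females. GCV-treated males had 20.9, 194 and 0.58 CPM, and VEH-treated males 4.90, 0.71 and 2.03 CPM. Liver 32 alone held 1991 of the 2333 Mmp12 counts of all 12 livers, so this gene's male values rest mainly on that liver. Without TMM scaling its 3 highest livers were 32 (350 CPM), 30 (24.8 CPM) and 24 (8.06 CPM), the last near female 27 (7.96 CPM). Its lowest value, 3 counts in male 34, lies at the limit that a count of 0 allows, so no fold range is given.

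Cd9, a tetraspanin found on many cell types besides macrophages, was highest in GCV-treated female 31 (102 CPM), followed by GCV-treated males 32 (65.3 CPM) and 30 (55.2 CPM). VEH-treated female 28 (53.0 CPM) came next and VEH-treated female 27 (11.8 CPM) last. Without TMM scaling Cd9 was highest in liver 32 (118 CPM), then in livers 31 (86.5 CPM), 24 (70.4 CPM) and 30 (65.8 CPM). The annotation places the antisense gene Gm28809 over Cd9, and it drew 3 counts in all against 3307.

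Lgals3 encodes galectin-3, a lectin that binds galactosides on glycoproteins and is secreted by activated macrophages. It was highest in GCV-treated female 33 (243 CPM, 315 counts), the library rich in mitochondrial RNA, whose TMM factor was 0.259. Next were GCV-treated male 32 (128 CPM) and VEH-treated male 24 (71.5 CPM), and the lowest were VEH-treated male 26 (5.94 CPM) and GCV-treated female 35 (6.04 CPM). Without TMM scaling liver 33 had 62.9 CPM, below livers 32 (230 CPM) and 24 (118 CPM). Liver 33 did not stand out for Tyrobp (39.4 CPM, 51 counts) or Trem2 (3.86 CPM, 5 counts).

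Counts of 2 genes can be compared inside a liver without any scaling between libraries, so each member was also expressed as its percentage of its own and the Tyrobp counts together. This measure was chosen after the values had been seen, and the intervals (exact Clopper-Pearson, 95%) cover counting error only. Trem2 made up 30.4% (27.8 to 33.1) in VEH-treated male 24, 29.6% (26.4 to 32.9) in GCV-treated male 30 and 28.8% (27.3 to 30.4) in GCV-treated male 32. These intervals overlapped, so a difference in the ratio of receptor to adaptor among the 3 livers was not detectable at this depth. Elsewhere it lay between 5.96% in VEH-treated female 28 (3.51 to 9.38) and 26.2% in VEH-treated female 27 (19.8 to 33.4).

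Mmp12 differed between the same 3 livers by more than counting error. Its percentage was 45.7% (44.3 to 47.2) in GCV-treated male 32, 21.2% (18.2 to 24.4) in GCV-treated male 30 and 4.77% (3.46 to 6.39) in VEH-treated male 24. Gpnmb made up 10.4% (8.12 to 13.1) in liver 30, 1.64% (0.90 to 2.74) in liver 24 and 1.42% (0.99 to 1.98) in liver 32. Liver 30 was hence the one with Gpnmb in excess of the other 2, and liver 32 the one with Mmp12 in excess. Both genes were also high beside Tyrobp in a pair of females of opposite treatment. In GCV-treated female 35 Gpnmb made up 37.5% (26.9 to 49.0) and Mmp12 35.1% (24.5 to 46.8), and in VEH-treated female 27 Gpnmb made up 31.4% (24.7 to 38.6) and Mmp12 31% (24.4 to 38.2).

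Lgals3 made up 33.4% (30.2 to 36.7) in GCV-treated male 30 to 47.9% (39.3 to 56.5) in GCV-treated male 34 among 11 livers. VEH-treated male 24, with 42.2% (39.7 to 44.8), exceeded livers 30 and 32 (35.6%, 34.1 to 37.2) by more than counting error. GCV-treated female 33 had 86.1% (82.1 to 89.4), outside every other interval. Relative to Tyrobp, Lgals3 was thus higher in liver 33 than in any other liver, in the library with 64.0% mitochondrial counts, whereas its counts (315) were below those of liver 32 (1307) and liver 24 (613). The part of library quality in this value was not tested. Lpl ranged from 53.6 to 78.2%, and both ends came from VEH livers (female 29 and male 24).

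**Figure D3:**
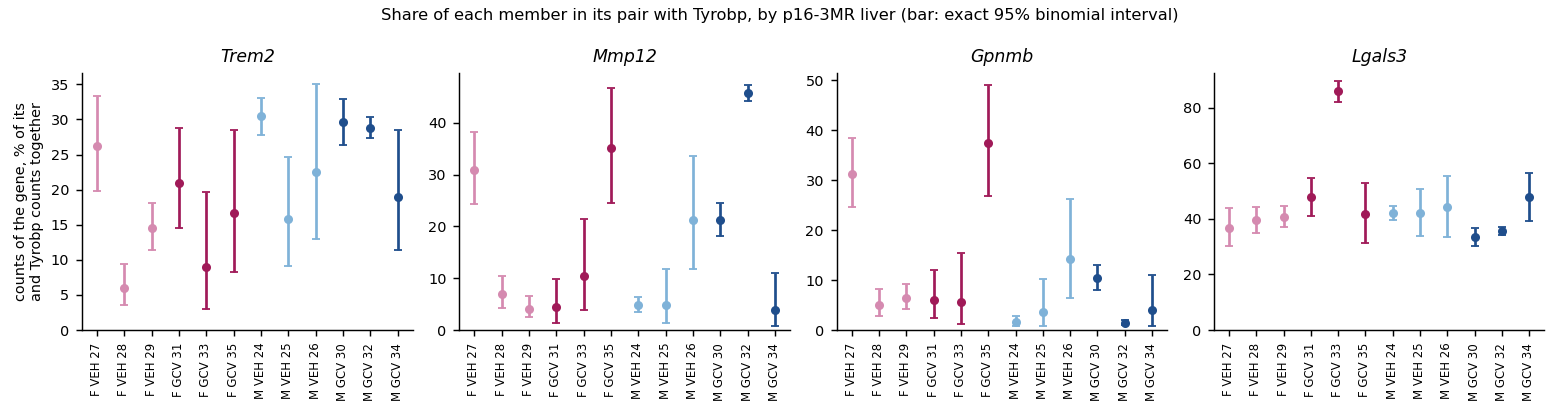
Counts of Trem2, Mmp12, Gpnmb and Lgals3 as a percentage of the gene's and Tyrobp's counts together, for each p16-3MR liver. Points are livers and bars exact 95% binomial intervals. Trem2 sits at 28.8 to 30.4% in livers 24, 30 and 32, Mmp12 separates these 3 livers, Gpnmb and Mmp12 are both high in livers 27 and 35, and Lgals3 is at 86.1% in liver 33.

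The question of whether GCV altered these genes where p16-expressing cells carry the kinase was put separately to each sex. In p16-3MR females, edgeR's quasi-likelihood test called 0 of the 10 members and 0 of all genes at an adjusted p-value under 0.05 (a background of 0%). At an unadjusted p-value under 0.05 the members again gave 0, while 7.37% of all genes passed. Cd9 passed in the fit without VEH-treated female 28, where the lowest adjusted p-value among the members was 0.868. DESeq2 also called 0 members, against 0.395% of all genes. Groups overlapped for every member, against 13.3% of all genes without overlap. Without TMM scaling, Lpl (21.4 to 32.6 CPM after GCV and 43.0 to 66.9 CPM after VEH) and Cd68 (3.98 to 6.59 and 12.2 to 40.5 CPM) did not overlap, against 16.8% of all genes lower after GCV. The estimates, GCV minus VEH on the log2 scale, were negative for 7 members and positive for 3, with a median of -0.24 (0.00 over all genes).

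Trem2 averaged 3.71 ± 1.96 CPM after GCV and 5.64 ± 3.01 CPM after VEH in females (SD, n = 3 each), a log2 difference of -0.62 with a standard error of 1.18 (adjusted p = 0.920). It was -1.21 without GCV-treated female 31 and -0.21 without GCV-treated female 35. Tyrobp differed by -0.65 (standard error 0.98, adjusted p = 0.870) and Cd68 by -1.04 (1.19, adjusted p = 0.815). Without liver 33, the estimate for Tyrobp was -1.33 and that for Cd68 -2.26. Tyrobp was at -0.235 without GCV-treated female 35, and Cd68 at -0.55 without VEH-treated female 29. Single livers thus decided much of the size of both. All 12 general macrophage markers had negative estimates in females, with a median of -1.35, and 1 of them was lower at an unadjusted p-value under 0.05. Lymphocyte markers had lower medians in the same comparison, at -2.19 for 8 T and NK cell markers (3 lower at an unadjusted p-value under 0.05) and -1.87 for 5 B cell markers (2 lower). For 8 markers of sinusoidal endothelium the median was -0.77, with 3 lower. At the same threshold 7.37% of all genes passed in either direction.

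The 3 members with positive estimates in females were Lgals3 (1.93, standard error 1.22, adjusted p = 0.706), Cd63 (0.77, 0.81, adjusted p = 0.814) and Cd9 (0.76, 0.63, adjusted p = 0.746). Lgals3 became -0.94 without liver 33, and Cd9 became -0.47 without GCV-treated female 31. Each of those estimates thus took its direction from 1 liver, while that of Cd63 stayed between 0.31 and 1.19 with each liver left out in turn. Without TMM scaling, however, Cd63 had 13.9, 3.40 and 4.15 CPM in GCV-treated females 31, 33 and 35. VEH-treated females 27, 28 and 29 had 5.31, 6.91 and 9.18 CPM on that scale, all above livers 33 and 35. Ctsd (-0.01) and Lpl (-0.09) were closest to 0, with standard errors of 0.49 and 1.00.

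In p16-3MR males all 10 estimates were positive, with a median of 0.88 against 0.04 over all genes, and again edgeR called 0 members and 0 genes of the table (background 0%). At an unadjusted p-value under 0.05, 2 members passed with higher levels after GCV, Gpnmb and Mmp12, against 1.1% of all genes. No member passed without GCV-treated male 32. Without GCV-treated male 34, Ctsd and Tyrobp passed as well, and the lowest adjusted p-value among the members was 0.798. Gpnmb did not pass with filterByExpr, with the 6 male livers alone or in 7 of the 12 leave-one-out fits, those without females 33, 28 and 29 and males 30, 32, 25 and 26, while Mmp12 passed in each of these but the fit without male 32. No member had groups without overlap, against 6.4% of all genes. DESeq2 called 0 members (0.023% of all genes), and its lowest adjusted p-value among them was 0.281, for Mmp12.

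Mmp12 averaged 71.9 ± 106 CPM after GCV and 2.55 ± 2.14 CPM after VEH in males (SD, n = 3 each). The log2 difference was 4.77 with a standard error of 1.35 (adjusted p = 1), and 2 of the 3 GCV livers were above all VEH livers. It was 2.01 without GCV-treated male 32. Gpnmb averaged 4.30 ± 4.31 and 1.14 ± 0.56 CPM, a log2 difference of 1.88 (standard error 0.86, adjusted p = 1), and 0.74 without GCV-treated male 30.

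Trem2 averaged 43.0 ± 45.9 CPM after GCV and 15.9 ± 23.3 CPM after VEH in males, with SDs larger than or near the means. The log2 difference of 1.43 had a standard error of 1.08 (adjusted p = 1), and that of Tyrobp, 1.42, one of 0.97 (adjusted p = 1). Lgals3 differed by 1.03, Cd63 by 0.74, Cd68 by 0.74, Ctsd by 0.73, Lpl by 0.60 and Cd9 by 0.49. All 12 macrophage markers were also positive in males, with a median of 1.30, and 0 of them passed at an unadjusted p-value under 0.05.

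These male estimates depended on which of the high livers was kept. Without GCV-treated male 32, Trem2 was at 0.10, Tyrobp at 0.13, Lpl at -0.01, Lgals3 at -0.25 and Cd68 at -0.26. Without VEH-treated male 24, Trem2 was at 4.18, Cd68 at 3.53, Tyrobp at 3.35 and Lpl at 2.90. In that fit 8 of the 10 members, all but Cd9 and Ctsd, were higher after GCV at an unadjusted p-value under 0.05, against 6.3% of all genes, and the lowest adjusted p-value among them was 0.491. No member was called in either fit. For Trem2, Tyrobp, Lpl, Lgals3 and Cd68 the size of the male difference depended on GCV-treated male 32 as well as on VEH-treated male 24.

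**Figure D4:**
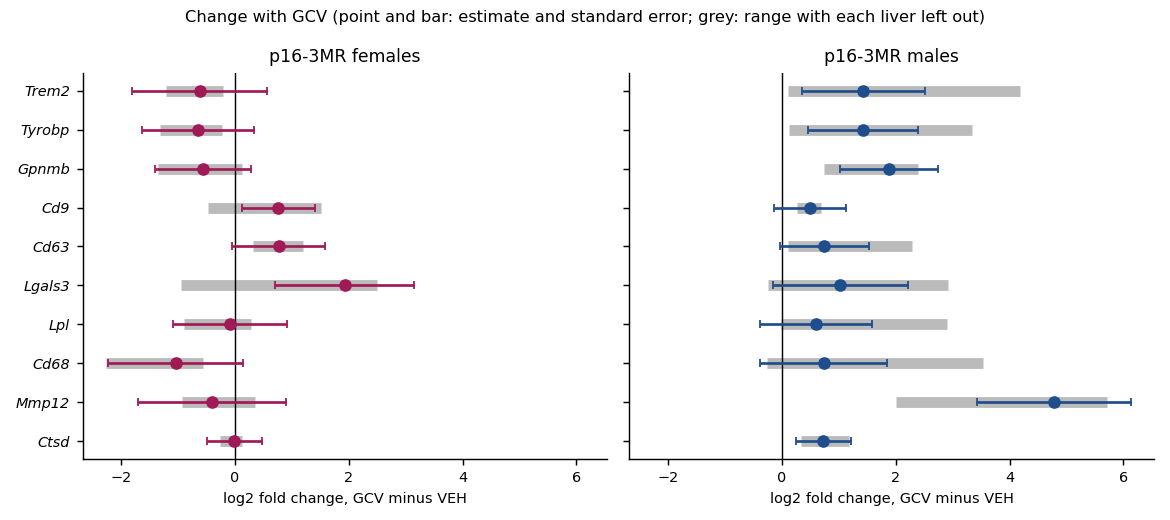
Log2 difference between GCV and VEH in p16-3MR females (left) and males (right) for the 10 genes. Points and thin bars are the estimate and its standard error, and grey bars span the estimates with each of the 12 livers left out in turn. Trem2 in males runs from 0.10 to 4.18, and Lgals3 in females from -0.94 to 2.49.

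Whether females and males responded differently was tested as the female minus the male log2 difference. Of the 10 members, 0 were called by edgeR or by DESeq2 at an adjusted p-value under 0.05 (background 0% in edgeR and 0.0138% in DESeq2). At an unadjusted p-value under 0.05, 1 member passed, Mmp12, against 3.78% of all genes. It did not pass without GCV-treated male 32, where no member did. Its difference was -5.18 (standard error 1.83, adjusted p = 0.976), and -2.45 in the fit without that liver. Gpnmb differed by -2.44 (1.20), Tyrobp by -2.08 (1.38) and Trem2 by -2.05 (1.60) (adjusted p = 0.976, 0.976 and 0.986). At an unadjusted p-value under 0.05, Gpnmb passed beside Mmp12 without GCV-treated female 35, VEH-treated female 28 or GCV-treated male 34. Without VEH-treated male 24, the response of 6 members was lower in females at an unadjusted p-value under 0.05 (Trem2, Tyrobp, Gpnmb, Lpl, Cd68 and Mmp12), against 6.95% of all genes, with a lowest adjusted p-value of 0.306.

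Among VEH-treated p16-3MR mice, females were compared with males to show the members' levels without GCV. Here edgeR called 0.12% of all genes and 0 of the 10 members (adjusted p-value under 0.05), and DESeq2 called 0 members and 0.455% of all genes. Gpnmb had 7.77, 2.03 and 3.40 CPM in females and 1.63, 0.54 and 1.25 CPM in males. It was higher in all 3 females than in any male, which held for 4.22% of all genes in that direction, with a log2 difference of 1.91 (standard error 0.86, adjusted p = 1). Without TMM scaling its groups overlapped (2.20 CPM in VEH-treated female 28 and 2.69 CPM in VEH-treated male 24). At an unadjusted p-value under 0.05 it was 1 of 10 members, against 1.25% of all genes higher in females. It did not pass with filterByExpr, with both treatments averaged (where Trem2, Lpl and Cd68 passed with lower levels in females, against 4.44% of all genes in that direction) or in 6 of the 12 fits with a liver left out, those without GCV-treated female 33, VEH-treated females 27 and 29, GCV-treated male 32 and VEH-treated males 25 and 26. The other members overlapped. Trem2 was at -1.50 (1.10) and Lpl at -1.35 (1.01) with all livers, and at 1.24 and 0.92 without VEH-treated male 24, so the direction of both came from that liver.

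In wild-type livers the readable members were far more even. Tyrobp had 22.8, 15.0 and 26.1 CPM in GCV-treated females (livers 4 to 6) and 16.7, 32.7 and 29.9 CPM in VEH-treated females. GCV-treated males had 18.6, 17.2 and 24.4 CPM (livers 1 to 3), and VEH-treated males 27.7, 25.1 and 18.0 CPM. GCV and VEH groups overlapped for all members but Ctsd in males (10% of all genes did not overlap in females), and the highest liver was 2.19-fold above the lowest, against 30.7-fold in p16-3MR livers. Wild-type Cd68 spanned 3.09-fold (p16-3MR 35.2-fold), Cd63 1.89-fold (9.08-fold) and Ctsd 1.36-fold (4.16-fold). The median gene was also less spread in the wild-type table, and genotype, batch and age cannot be told apart. In wild-type livers 5 of the 12 macrophage markers could be read, and they summed to between 205 and 364 CPM.

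The log2 difference of Tyrobp between GCV and VEH was -0.28 (standard error 0.24) in wild-type females and -0.23 (0.25) in wild-type males. Cd68 differed by -0.33 (0.33) and -0.18 (0.35), and Cd63 by -0.04 (0.26) and 0.17 (0.26). Of the 5 members, edgeR called 0 in either sex at an adjusted p-value under 0.05, against 0.00791% of all genes in females and 0% in males, and DESeq2 also called 0, against 0.134% of all genes in females and 0.00791% in males. At an unadjusted p-value under 0.05 the members gave 0 in both sexes, against 4.56% of all genes in females and 5.06% in males. With a liver left out, Tyrobp passed in females without VEH-treated female 4, and Ctsd in males without VEH-treated male 1. Standard errors of the 5 members were 0.11 to 0.35 (Mmp12 aside), several times smaller than those in p16-3MR livers.

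Ctsd had 215, 226 and 239 CPM in GCV-treated and 242, 260 and 278 CPM in VEH-treated wild-type males. All 3 GCV livers were below all VEH livers, which was so for 1 of 5 members and for 4.37% of all genes in that direction. Without TMM scaling they overlapped, with 220 CPM in GCV-treated male 2 and 202 CPM in VEH-treated male 1. The difference was -0.20 (standard error 0.11, adjusted p = 0.889). Ctsd of GCV-treated females (239, 226 and 234 CPM) lay within the range of VEH-treated females (205, 273 and 251 CPM). Mmp12 had 0 to 6 counts per wild-type liver, at or under the limit of 3 counts in all but VEH-treated male 2, so no fold is given for it. The female minus male response was tested for the same 5 members, and 0 were called (0.00791% of all genes), with 0 at an unadjusted p-value under 0.05 against 4.45% of genes.

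**Figure D5:**
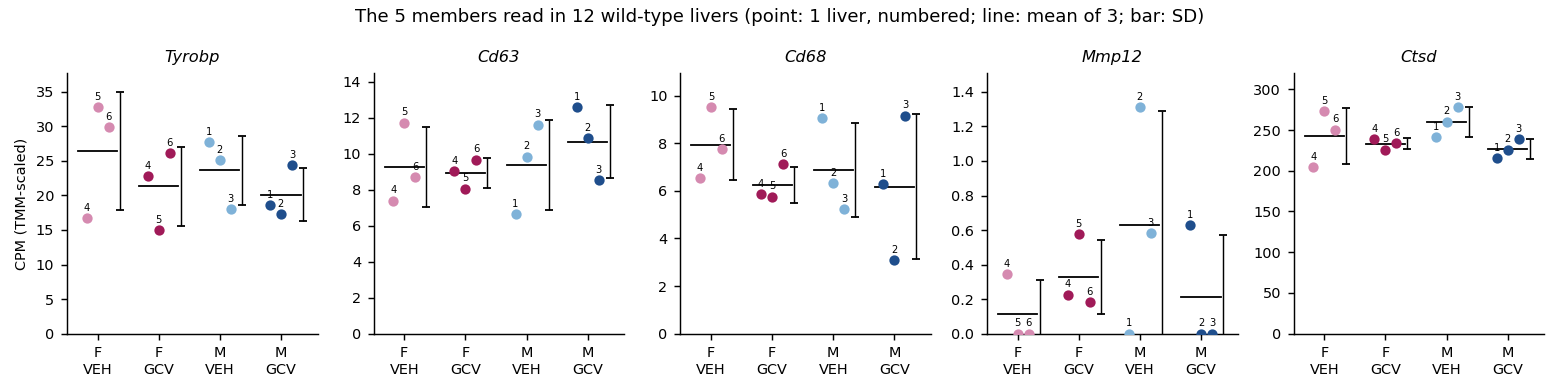
Level of the 5 readable members in the 12 wild-type livers, in TMM-scaled CPM on a linear axis from 0, by sex and treatment. Points are livers with their number, lines means of 3 and bars SDs. Groups overlap for Tyrobp, Cd63 and Cd68, and the GCV-treated males of Ctsd lie just below the VEH-treated males on this scale.

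Of the genes around the Trem2 receptor, 16 were listed as its signalling and shedding partners, such as the adaptor Hcst, the kinases Syk, Lyn and Btk, the phospholipase Plcg2, the phosphatase Inpp5d, the shedding proteases Adam10 and Adam17, and the ligands Apoe and Clu. In p16-3MR females 0 of 16 were called in either direction and 14 estimates were negative, with a median of -0.52 (0.00 over all genes). The lowest unadjusted p-values belonged to Lat2 (-1.63), Plcg2 (-1.65), Btk (-2.04) and Adam17 (-0.81). In males 0 of 16 were called and 14 estimates were positive, with a median of 0.80 (0.04 over all genes), led by Hcst (2.11), Grb2 (0.66), Lyn (0.97) and Inpp5d (1.31). No gene of the list passed at an unadjusted p-value under 0.05 in either sex.

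A further 23 genes known from lipid-associated macrophages gave 0 calls in both sexes of p16-3MR mice. Their median was -0.16 in females and 0.60 in males, where 20 estimates were positive. Clec7a, the beta-glucan receptor dectin-1, had 4.63 to 7.13 CPM in GCV-treated and 17.6 to 59.5 CPM in VEH-treated females, groups that did not overlap, as for 7.35% of all genes in that direction (log2 difference -2.53, standard error 1.27, adjusted p = 0.673). Axl, a receptor for dying cells, had 3.09 to 14.5 CPM and 23.2 to 47.2 CPM, also without overlap (-2.08, 0.98, adjusted p = 0.667). Lipa, the lysosomal acid lipase, differed by -1.11 (0.58), and Acp5, an acid phosphatase, by 0.77 (0.40). In males, Ctss differed by 2.08 (1.14), Fabp4 by 1.38 (0.87), Atp6v0d2 by 1.19 (0.62) and Ctsb by 0.86 (0.53), none of them at an unadjusted p-value under 0.05.

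Atp6v0d2, a subunit of the lysosomal proton pump, was called between the sexes in wild-type mice and was not called in any GCV comparison. VEH-treated p16-3MR females had 25.3 to 45.7 CPM and males 2.5 to 11.4 CPM, a log2 difference of 2.80 (standard error 0.64, adjusted p = 0.259). In the wild-type table females had 10.5 to 17.3 CPM and males 0.66 to 1.60 CPM, and the difference of 3.49 (0.40) was called (adjusted p = 3.85e-06), as were 3.82% of all genes. After GCV its estimate in wild-type males was 1.08 (0.51, adjusted p = 0.889). Of the 5 readable members, edgeR and DESeq2 called 0 between wild-type VEH females and males (DESeq2 called 4.49% of all genes), and 0 passed at an unadjusted p-value under 0.05 against 15.2% of all genes. In that comparison Tyrobp differed by 0.16 (0.24) and Ctsd by -0.10 (0.11). Fabp5, a fatty acid-binding protein, was the 1 gene of this list called in a GCV comparison, with 188 to 216 CPM in GCV-treated and 487 to 767 CPM in VEH-treated wild-type females (-1.70, 0.24, adjusted p = 0.00927). DESeq2 also called it (adjusted p = 0.00362). The call was lost with filterByExpr (adjusted p = 0.126) and without GCV-treated female 5 (0.0662), GCV-treated female 6 (0.0913) or VEH-treated female 6 (0.0541), with estimates of -1.88 to -1.57 over the leave-one-out fits. Fabp5 was also higher in VEH-treated females than in VEH-treated males (134 to 337 CPM), by 1.65 (0.24, adjusted p = 0.000117). With both treatments averaged, its sex difference was 0.52 and was not called (adjusted p = 0.0638). The response of Fabp5 differed between the sexes by -2.26 (0.34, adjusted p = 0.0197). That call was lost in DESeq2 (adjusted p = 0.0946), with filterByExpr (0.222) and in several fits with a liver left out. The wild-type table gave 12 of the 23 genes.

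The lysosomal list of 29 genes, which stands beside Ctsd, Cd63 and Cd68, had 0 calls in both sexes of p16-3MR mice. In females 21 estimates were negative (median -0.30), with Lipa (-1.11), Atp6v1a (-0.84), Ctss (-2.05) and Scarb2 (-0.72) at the lowest unadjusted p-values. In males 24 were positive (median 0.51), with Gusb (0.90), Ctss (2.08) and Ctsa (0.81) among the lowest unadjusted p-values. None of these passed at an unadjusted p-value under 0.05.

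Lpl acts with carriers, inhibitors and cofactors, and 16 of these were listed, most of them made by hepatocytes or endothelium. Their medians ran the other way from the macrophage lists, at 0.46 in females and -0.20 in males, with 0 calls. Apoc3, an inhibitor of lipolysis made by hepatocytes, had 1445 to 4003 CPM in GCV-treated and 624 to 971 CPM in VEH-treated females (1.83, standard error 0.72, adjusted p = 0.667). Its groups did not overlap, as for 13.3% of all genes in either direction. It was the 1 gene of this list to pass at an unadjusted p-value under 0.05 in females, against 7.37% of all genes. Lmf1, which folds the lipase, differed by 1.08 (0.52), Furin, a protease that cleaves it, by 1.11 (0.55), and the uptake receptor Lrp1 by -0.83 (0.46). In males Vldlr differed by -1.44 (0.80), Pcsk6 by -0.66 (0.54), Angptl4 by -0.90 (0.84) and Apoa5 by -0.69 (0.71).

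Macrophage cholesterol efflux was represented by 12 genes, with medians of -0.59 in females and 0.34 in males and 0 calls. Scarb1, the HDL receptor, had 31.7 to 45.3 CPM after GCV and 59.4 to 72.1 CPM after VEH in females (-0.74, standard error 0.30, adjusted p = 0.667). Its groups did not overlap, as for 7.35% of all genes in that direction. Nceh1, a cholesteryl ester hydrolase, differed by -1.17 (0.51), Nr1h2, the receptor LXR beta, by 1.00 (0.46), and Mylip, an LXR target that degrades the LDL receptor, by -1.32 (0.71). Of these, 3 passed at an unadjusted p-value under 0.05 in females (Scarb1, Nceh1 and Nr1h2), against 7.37% of all genes. Abcg1 (1.31), Soat1 (1.16), Abca1 (0.37) and Olr1 (1.48) led in males with none passing.

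Across the 12 p16-3MR livers, the rank correlation of each gene's log2 CPM with that of Trem2 was computed among 12408 genes as a description, with all genes sharing libraries and scaling. Tmem206 (Spearman's rho 0.951), Stx7 (0.923), Cndp2 (0.916), Pign (0.916) and B3galnt1 (0.895) came first. Tyrobp was the member closest to Trem2 (0.874, place 22), followed by Cd68 (0.853, place 47) and Cd63 (0.846, place 60). Lpl had 0.769, Lgals3 0.706, Ctsd 0.678 and Mmp12 0.601. Cd9 (0.371) and Gpnmb (0.357) were the members least like Trem2, although Gpnmb is commonly listed beside it.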

How the data were processed

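Liver libraries were made with Smart-3SEQ. Per the labels and the study's methods, the authors checked reads with FastQC 0.11.9, trimmed them with Trim Galore 0.6.10, quantified them with Salmon 1.10.3 against a mouse transcriptome (build mm10 in the submitters' processing notes), summed transcripts to genes with tximport and dropped genes under 3 reads. Both deposited tables hold estimated counts (expected counts) per gene, rounded by the authors to whole numbers without scaling. How strand was used in counting is not given in the sources used here.

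Counts were analysed per genotype with edgeR 4.0.16 in R 4.3.3 (TMM, 1 mean per group over 12 livers, quasi-likelihood test, Benjamini-Hochberg adjustment over all genes, calls at an adjusted p-value under 0.05), and every adjusted p-value printed is from that test unless DESeq2 (1.42.0) is named. DESeq2 used the same groups. Replicates are separate mice per the labels. Log2 CPM used a prior count of 2. Standard errors belong to log2 differences. The script was tested on simulated data with 200 genes changed in GCV-treated females. At a log2 difference of 1, the test called 1 of these 200 in the p16-3MR design and 177 in the wild-type design. At a log2 difference of 2 it called 31 and 199. Changes of this size could thus go uncalled in p16-3MR livers.

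All 24 libraries were used. Symbols and positions came from GENCODE M21 (GRCm38): 21698 of 21755 gene IDs had a symbol, and 10496 of 12643 wild-type labels fitted exactly 1. Trem2, Gpnmb, Cd9, Lgals3 and Lpl shared their shortened label with other genes and were not read. All members were named, plus up to 4 genes per list with the lowest unadjusted p-value in the comparison described and the 5 genes most like Trem2 (1 gene of the lysosomal list is not reported here). Members and lists were chosen with earlier results of these data known, so none is independent evidence. Alternatives were DESeq2, its size factors in edgeR, edgeR's filterByExpr, only the 6 livers of a sex, both treatments averaged for the sex difference, a replicate block (wild type), CPM without TMM, another rule for wild-type labels and each liver left out.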

Additional observations from a re-analysis of the deposited data

Results flagged for a closer look

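The response of Fabp5, one of the listed genes of lipid-associated macrophages, differed between wild-type females and males by -2.26 on the log2 scale (edgeR's interaction test, adjusted p = 0.0197). The estimate was -1.70 in females and 0.56 in males, where the adjusted p-value was 0.889 with all livers and 0.00244 without VEH-treated male 1 (estimate 1.09). The difference missed the threshold in DESeq2 (adjusted p = 0.0946), with filterByExpr (0.222) and in 7 of the 12 fits with a liver left out (those without GCV-treated females 4, 5 and 6, VEH-treated female 6, GCV-treated males 1 and 3 and VEH-treated male 3), whose estimates all stayed negative, from -2.80 to -2.03 over the 12.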

How the results depend on the processing

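No member passed an adjusted p-value under 0.05 in any comparison under any alternative run, and the lowest adjusted p-value of a member was 0.281 (DESeq2). Of 580 log2 differences recomputed for 36 member results, 558 kept their direction and 22 reversed, of which 1 did so with all livers kept: Mmp12 between the sexes, -1.90 with both treatments averaged. The other reversals came from leaving out 1 liver. In p16-3MR females the ranges were -1.36 to 0.13 for Gpnmb, -0.47 to 1.51 for Cd9, -0.94 to 2.49 for Lgals3, -0.90 to 0.29 for Lpl, -0.92 to 0.35 for Mmp12 and -0.26 to 0.13 for Ctsd. In p16-3MR males they were -0.25 to 2.92 for Lgals3, -0.0123 to 2.90 for Lpl and -0.26 to 3.53 for Cd68. Between the sexes after VEH they were -2.01 to 1.24 for Trem2, -0.056 to 1.60 for Mmp12 and -1.85 to 0.92 for Lpl. In wild-type females they were -0.19 to 0.16 for Cd63 and -0.17 to 0.0348 for Ctsd, and in wild-type males -0.0098 to 0.36 for Cd63 and -0.59 to 0.18 for Cd68. The cause of these reversals beyond the liver left out was not tested.

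Counts of called genes over the whole table moved more. DESeq2 called 86 genes in p16-3MR females (edgeR 0), 5 in males (0), 3 for the difference in response (0) and 99 between the sexes after VEH (26), and 17 in wild-type females (1) and 1 in wild-type males (0). Only the 6 livers of a sex gave 3 in p16-3MR and 44 in wild-type females, filterByExpr gave 0 in wild-type females and 0 for their response difference (1), and averaging both treatments gave 66 (p16-3MR) and 1004 (wild type, 483) between the sexes. With each liver left out the counts were 0 to 1, 0 to 1, 0 to 0 and 17 to 35 in the p16-3MR comparisons, and 0 to 12, 0 to 46, 0 to 17 and 319 to 716 in the wild-type ones. The cause was not tested.

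Whether replicate numbers shared by wild-type groups mark pairs cannot be told from 3 same-numbered correlations per sex. Those were -0.06 to 0.00 in females and -0.07 to 0.28 in males. Correlations of different-numbered livers were -0.045 to 0.085 in females and -0.349 to 0.170 in males. A replicate block called 106 genes in females, 68 in males and 79 for the difference in response, with 0 of the 5 members among them. With this block Fabp5 was also called in wild-type males (0.66, adjusted p = 2.61e-05), and its difference in response was -2.34 (adjusted p = 3.58e-26). Precision was limited by 3 livers a group and a biological coefficient of variation of 55.8% in p16-3MR livers (16.6% in wild type). Of 60 group means, 6 moved by over 1 SD without TMM.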
